A study of Mus musculus with 30 samples.

Results

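The troponin genes of the mouse, 8 in number, were followed across 4 tissues of mice with and without myotubularin. The 8 genes were taken by symbol from the 36103 genes of the deposited count table and each was found there once. They are Tnnt1, Tnnt2 and Tnnt3, Tnni1, Tnni2 and Tnni3, and Tnnc1 and Tnnc2. RNA came from whole gastrocnemius, diaphragm, heart and liver of male Mtm1-/y mice, a constitutive knock-out line on a pure 129Pas background, and of WT littermates, all at 5 weeks of age. No other allele or agent is named for these groups. There were 4 WT and 4 Mtm1-/y libraries of the gastrocnemius and of the heart, 4 and 3 of the diaphragm, and 3 and 4 of the liver. The libraries held 24873817 to 44289343 counts. Tnnt3 was read with 508862 to 909541 counts per gastrocnemius library and Tnni3 there with 17 to 60.

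Troponin is the calcium switch of the thin filament in striated muscle. Each complex has a troponin T subunit that anchors it to tropomyosin, a troponin I subunit that inhibits the contact of actin with myosin, and a troponin C subunit that binds calcium. Fast fibres use Tnnt3, Tnni2 and Tnnc2, and slow fibres use Tnnt1, Tnni1 and Tnnc1. The adult heart uses Tnnt2 and Tnni3 together with Tnnc1, the troponin C that it shares with slow fibres. Tnnt2 is also made for a time in developing and regenerating skeletal muscle, and Tnni1 is the troponin I of the fetal heart. Myotubularin, the product of Mtm1, is a phosphoinositide phosphatase whose loss causes X-linked myotubular myopathy.

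The troponin T and I genes lie in pairs on the mouse genome (GRCm38, which is mm10, GENCODE M21). Tnni1 (chr1:135779434-135810989, plus strand) and Tnnt2 (chr1:135836354-135852260, plus strand) are separated by 25364 bases. On chromosome 7, Tnnt1 (chr7:4504570-4516382, minus strand) and Tnni3 (chr7:4518305-4524229, minus strand) are 1922 bases apart. Tnni2 (chr7:142441808-142444410, plus strand) and Tnnt3 (chr7:142498836-142516009, plus strand) are 54425 bases apart. The troponin C genes stand alone, Tnnc1 at chr14:31208312-31211729 on the plus strand and Tnnc2 at chr2:164777161-164779967 on the minus strand. Exons of Ube2c, on the opposite strand, overlap 592 bases of the exons of Tnnc2, which is 74% of them. Exons of Dnaaf3, on the same strand, overlap 86 bases of those of Tnni3, which is 4.17% of them. The strand setting of the read counting is not given in the sources used here, so counts in these stretches are uncertain. The same holds for the level of Tnnc2 and for ratios between genes or subunits that include it.

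RefSeq promoter windows (GRCm38.p6) matched 6 of the 8 genes, and Tnni2 and Tnnt3 had no entry. The RefSeq starts used for Tnnt1 and Tnnc2 lie inside the gene spans given above, so their windows overlap those spans. The 250 bases before the start are shown for 4 genes with different outcomes in the gastrocnemius below, Tnnt2 as the cardiac form that rose most, Tnnc2 as a fast form that fell, and Tnnt1 and Tnnc1 as slow forms that did not pass the test. Capitals mark 3 motifs searched on both strands, the E-box CANNTG read by MyoD-type factors, the M-CAT motif CATTCC read by TEAD factors, and the TATA box in its exact form TATAAA. Variants of these letters were not marked, such as tatataa in Tnnc1. The MEF3, CArG and MEF2 motifs were also searched and had 0 matches in these 4 windows, against 3.49%, 1.47% and 2.92% of all windows. No match overlapped another.
Tnnt2, chr1:135836084-135836333, plus strand: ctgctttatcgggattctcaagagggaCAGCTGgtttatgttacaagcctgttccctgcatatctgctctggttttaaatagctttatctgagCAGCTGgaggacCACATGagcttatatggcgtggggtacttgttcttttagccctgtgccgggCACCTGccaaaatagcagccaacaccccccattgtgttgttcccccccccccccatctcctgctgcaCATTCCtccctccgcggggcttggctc
Tnnc2, chr2:164779735-164779984, minus strand: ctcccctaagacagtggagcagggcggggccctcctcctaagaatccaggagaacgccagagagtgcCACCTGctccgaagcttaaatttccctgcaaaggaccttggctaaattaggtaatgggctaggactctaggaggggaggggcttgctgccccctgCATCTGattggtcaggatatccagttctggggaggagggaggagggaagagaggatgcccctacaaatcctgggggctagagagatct
Tnnt1, chr7:4515976-4516225, minus strand: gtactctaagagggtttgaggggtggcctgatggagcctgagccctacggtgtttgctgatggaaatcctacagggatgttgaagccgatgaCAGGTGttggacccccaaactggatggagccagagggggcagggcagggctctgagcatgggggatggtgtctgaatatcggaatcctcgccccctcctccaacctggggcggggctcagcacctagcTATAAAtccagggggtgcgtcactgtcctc
Tnnc1, chr14:31208062-31208311, plus strand: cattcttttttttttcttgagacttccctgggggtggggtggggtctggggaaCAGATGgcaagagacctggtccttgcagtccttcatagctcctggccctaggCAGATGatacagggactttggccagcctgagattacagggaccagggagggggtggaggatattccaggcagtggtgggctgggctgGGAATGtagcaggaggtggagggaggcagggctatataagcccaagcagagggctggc
In the window shown, Tnnt2 held 4 E-boxes and an M-CAT match at 27 to 22 bases before its start. A second RefSeq window of Tnnt2, chr1:135836739-135836988, held 1 E-box and no M-CAT or TATAAA match and is not shown. Tnnc1 held 2 E-boxes and an M-CAT match, on the other strand, at 58 to 53 bases before its start. Tnnc2 held 2 E-boxes only, and Tnnt1 held 1 E-box and a TATAAA at 30 to 25 bases before its start. Among all 32851 windows of this length, 66.2% held at least 1 E-box, 12.6% the M-CAT motif and 12.4% TATAAA, at any position. Holding any of these motifs is thus not rare. How often windows hold this number of matches, or matches at these positions, was not counted. The matches describe letters and show no binding.

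Levels were compared between genes per transcript length, as RPKM (reads per kilobase of transcript, scaled to library size, from the longest principal transcript) after TMM scaling over all 30 libraries. In WT gastrocnemius the fast forms came first, with Tnnt3 at 28562 ± 2896 RPKM, Tnnc2 at 19954 ± 2264 RPKM and Tnni2 at 14158 ± 1147 RPKM (SD, n = 4). The slow forms were far lower and overlapped each other, with Tnnc1 at 400 ± 167, Tnnt1 at 321 ± 137 and Tnni1 at 238 ± 118 RPKM (SD, n = 4). The cardiac forms were traces there, at 3.84 ± 1.12 RPKM for Tnnt2 and 0.791 ± 0.158 RPKM for Tnni3 (SD, n = 4). The diaphragm held the same order of classes at lower fast levels. Its WT libraries had Tnnt3 at 9171 ± 1882, Tnnc2 at 6490 ± 1467 and Tnni2 at 5408 ± 1172 RPKM, and Tnnt1 at 418 ± 81.6, Tnnc1 at 313 ± 75.2 and Tnni1 at 176 ± 50.2 RPKM (SD, n = 4). In both muscles the ranges of the 3 fast forms and of the 3 slow forms did not overlap each other, and neighbours within the diaphragm fast class did overlap.

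The heart used a different set. WT hearts had Tnnt2 at 5471 ± 877 RPKM, Tnni3 at 2981 ± 144 RPKM and Tnnc1 at 2712 ± 536 RPKM (SD, n = 4), and the latter pair overlapped. The other 5 genes were traces, with Tnnt1 at 12.0 ± 0.464, Tnni2 at 4.46 ± 3.64, Tnnt3 at 2.00 ± 0.731, Tnnc2 at 1.07 ± 0.243 and Tnni1 at 0.604 ± 0.404 RPKM (SD, n = 4). The cardiac markers of the heart and the fast markers of the muscles were thus where the tissue labels place them.

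**Figure D1:**
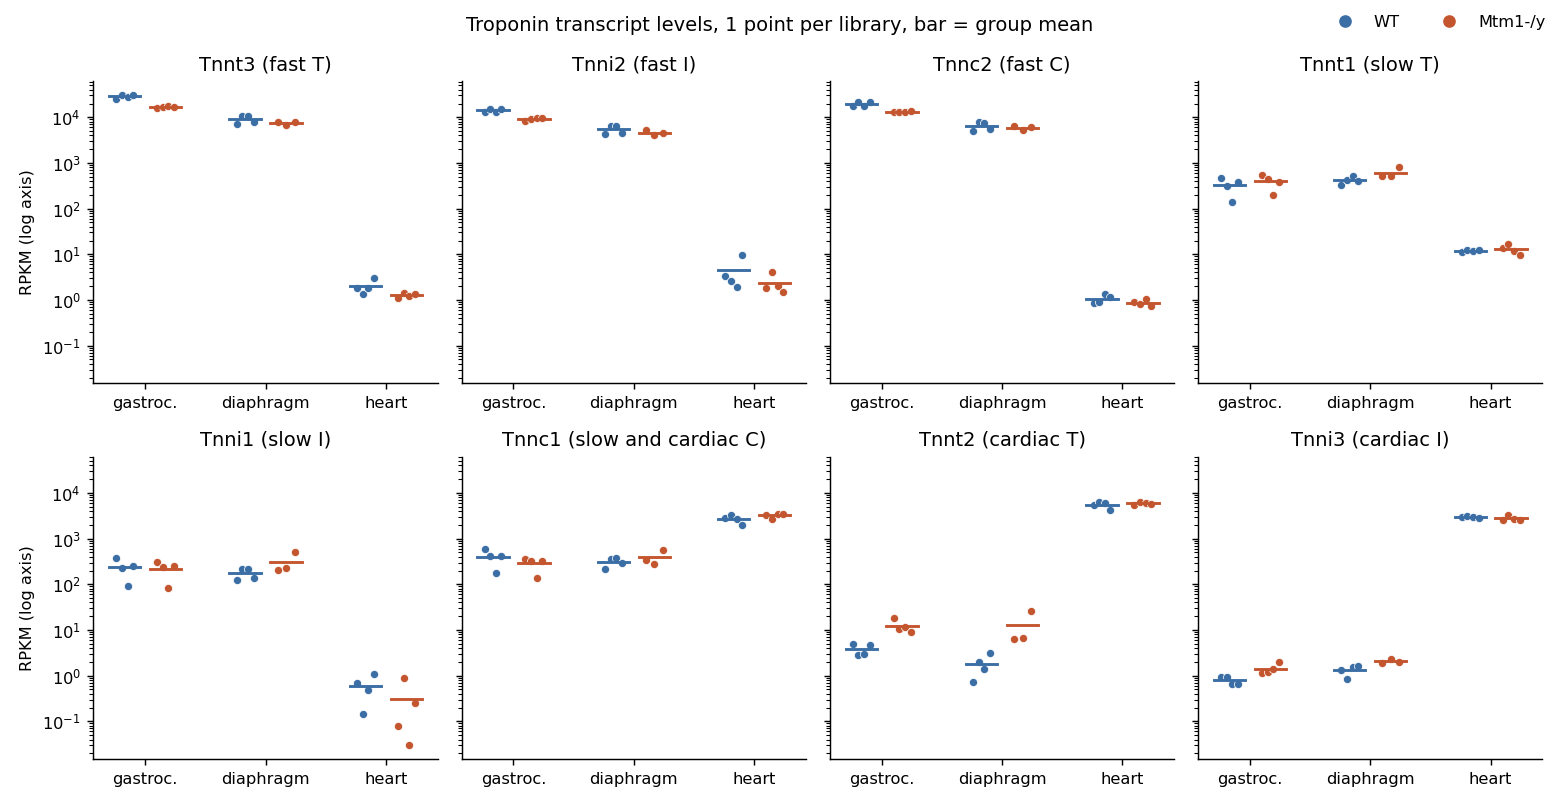
Level of each troponin gene in RPKM on a log axis, with 1 point per library, WT and Mtm1-/y side by side in gastrocnemius, diaphragm and heart, and a bar at the group mean. The fast forms sit at 3991 RPKM or more in both skeletal muscles and at 9.83 RPKM or less in the heart, and Tnnt2 sits at 2.78 to 4.93 RPKM in WT and 9.06 to 18.5 RPKM in Mtm1-/y gastrocnemius.

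The WT tissues were compared in 1 edgeR fit of the 12 WT muscle and heart libraries. WT diaphragm had less of all 3 fast forms than WT gastrocnemius, with log2 differences of -1.68 for Tnnt3 (SE 0.27, adjusted p = 0.000275), -1.66 for Tnnc2 (SE 0.21, adjusted p = 6.83e-05) and -1.43 for Tnni2 (SE 0.41, adjusted p = 0.0109). Tnnt2 was also lower in the diaphragm (-1.11, SE 0.36, adjusted p = 0.0219) and Tnni3 was higher (0.70, SE 0.21, adjusted p = 0.0151). The slow forms did not pass, at 0.35 for Tnnt1, -0.47 for Tnni1 and -0.39 for Tnnc1. The 5 genes called of 8 stand against 54.8% of all 16650 genes tested, so the count is near that of genes at large, and without the gastrocnemius library WT 4 it was 3. Against gastrocnemius, WT heart had 8 of 8 genes called (64.2% of all genes tested), from Tnnc2 (-14.22, SE 0.35) and Tnnt3 (-13.84, SE 0.44) on the low side to Tnnt2 (10.44, SE 0.51) and Tnni3 (11.84, SE 0.27) on the high side. Against diaphragm it also had 8 of 8 called (51.1% of all genes tested), with Tnnc1 at 3.12 (SE 0.33).

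The knock-out was visible in every Mtm1-/y library. Mtm1 was at 20.4 to 22.1 CPM in WT and 4.39 to 5.90 CPM in Mtm1-/y gastrocnemius, and the groups did not overlap in any of the 4 tissues. Some libraries stood apart in other respects. Alb, the serum albumin of hepatocytes, ranged from 252 to 28581 CPM over the diaphragm libraries and was lowest in WT 3, Mtm1-/y 4 and Mtm1-/y 1. The WT 4 heart had Nppa, an atrial hormone gene, at 16044 CPM against 567 to 2086 CPM in the other WT hearts. In whole tissue, fewer fibres of a type and less RNA per fibre cannot be told apart.

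In Mtm1-/y gastrocnemius all 3 fast troponins fell. Tnnt3 was at 25320, 31080, 27369 and 31280 CPM in WT libraries 1 to 4 and at 15815, 16788, 17715 and 17210 CPM in Mtm1-/y libraries 1 to 4. Tnni2 was at 10253, 11678, 9982 and 11582 CPM in WT and at 6440, 7174, 7359 and 7326 CPM in Mtm1-/y. Tnnc2 was at 12579, 15405, 12614 and 15273 CPM in WT and at 9255, 9017, 9306 and 9399 CPM in Mtm1-/y. For each of these genes every Mtm1-/y library was under every WT library. The log2 fold change was -0.79 for Tnnt3 (SE 0.10, adjusted p = 0.000685), -0.64 for Tnni2 (SE 0.09, adjusted p = 0.00111) and -0.61 for Tnnc2 (SE 0.10, adjusted p = 0.00178) by edgeR's quasi-likelihood test with Benjamini-Hochberg adjustment over all genes. As linear ratios, Mtm1-/y muscle held 0.579, 0.642 and 0.653 of the WT level. Ube2c, which shares exons with Tnnc2, was at 25.4 to 30.1 CPM in WT and 12.5 to 18.7 CPM in Mtm1-/y, against 9017 to 15405 CPM for Tnnc2.

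The cardiac troponin T gene went the other way in the same libraries. Tnnt2 was at 5.92, 3.34, 3.56 and 5.61 CPM in WT and at 22.2, 12.4, 14.0 and 10.9 CPM in Mtm1-/y gastrocnemius, on 84 to 193 and 365 to 839 counts. The groups did not overlap, and the log2 fold change was 1.67 (SE 0.26, adjusted p = 0.00141), a 3.18-fold rise. Tnnt2 still made up only 0.0728% ± 0.0278 of all troponin T RPKM in Mtm1-/y gastrocnemius, against 0.0135% ± 0.00458 in WT (SD, n = 4). Tnni3, the cardiac troponin I, rose from 0.858, 0.834, 0.610 and 0.585 CPM in WT to 1.06, 1.09, 1.25 and 1.79 CPM in Mtm1-/y (edgeR log2 change 0.82, SE 0.25, adjusted p = 0.0331), on only 17 to 60 counts a library. That call was lost without any of WT 2, WT 3, WT 4 or Mtm1-/y 4, with adjusted p of 0.0535, 0.0832, 0.0882 and 0.0808, and without the filter on low counts (0.0852). Markers of heart muscle were read beside these cardiac forms. Of 6 atrial markers 3 passed the filter and 1 rose, Sln, the calcium pump regulator sarcolipin, which skeletal muscle also makes. The WT libraries had Sln at 13.8 ± 6.34 CPM and the Mtm1-/y libraries at 299 ± 149 CPM (SD, n = 4). Its edgeR log2 change was 4.42 (SE 0.48, adjusted p = 0.00032). The atrial markers, Sln among them, summed to 31.5 to 47.7 CPM in WT and 157 to 489 CPM in Mtm1-/y. The 3 that passed the filter had a median log2 fold change of -0.34, so the higher sum is not a rise of the list as a whole. Nppa was at 0 in the WT libraries and at 0.0660 to 0.367 CPM in Mtm1-/y, Myl7 was at or under 0.0344 CPM in all 8, and Bmp10 was at 0. Of 8 cardiomyocyte markers 2 passed the filter and 0 changed, and the list summed to 90.7 to 383 CPM in WT and 54.5 to 228 CPM in Mtm1-/y. Their part in the rise of Tnnt2 and Tnni3 was not tested.

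Of the 8 troponins, 2 rose and 3 fell in the gastrocnemius, against 29.0% of the 15456 genes tested that changed in either direction, 14.1% that rose and 14.9% that fell. Only Tnnt2 also passed an absolute log2 fold change of 1, as 6.63% of all genes did. The same 5 genes had no overlap between the genotypes, and 30.7% of all genes tested had none. With all 30 libraries in 1 fit, 2 of the 8 were called and the fast forms were not, with adjusted p of 0.316, 0.501 and 0.445 for Tnnt3, Tnni2 and Tnnc2 at log2 fold changes of -0.80, -0.65 and -0.63. The share of all genes called in that fit is not given here. The loss of calls therefore cannot be set against genes at large.

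**Figure D2:**
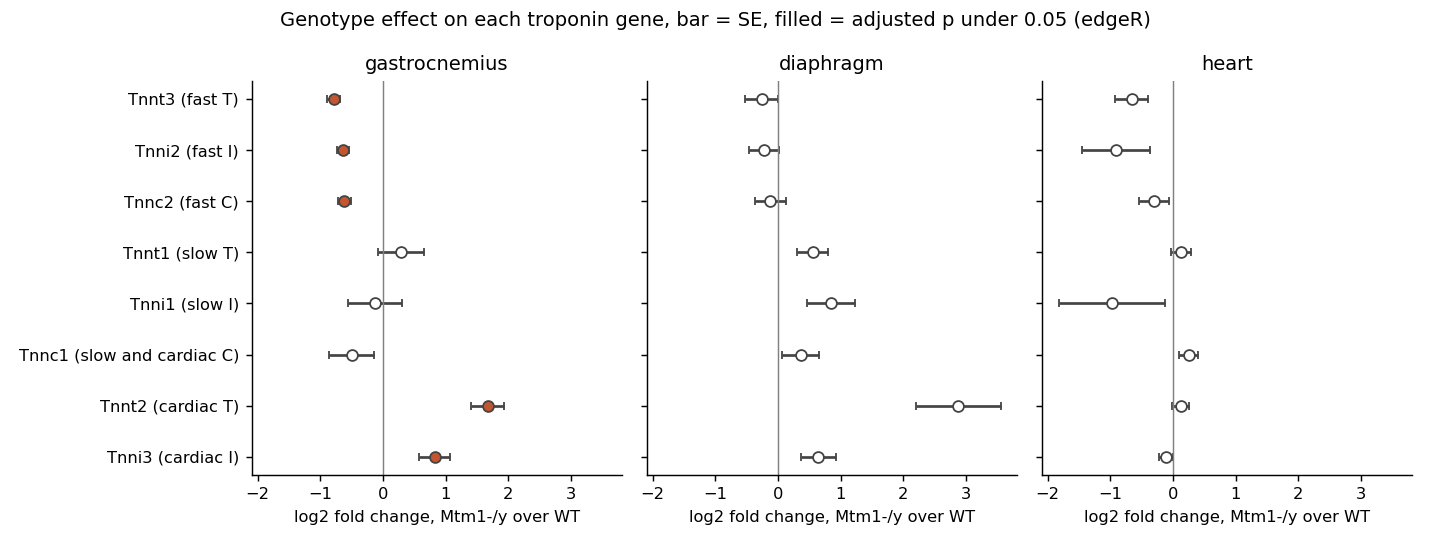
Log2 fold change of Mtm1-/y over WT for each troponin gene in 3 tissues, with bars of 1 SE and filled points at an adjusted p under 0.05. The 3 fast forms lie at -0.79 to -0.61 in the gastrocnemius, Tnnt2 lies at 1.67 there and at 2.88 in the diaphragm, and the heart has 0 filled points.

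The slow troponins did not pass the test in the gastrocnemius, and their libraries varied far more than those of the fast forms. Tnnt1 was at 471, 317, 141 and 389 CPM in WT and at 565, 455, 205 and 401 CPM in Mtm1-/y (edgeR log2 change 0.29, SE 0.36, adjusted p = 0.58). Tnni1 was at 435, 262, 106 and 291 CPM in WT and at 346, 276, 95.9 and 290 CPM in Mtm1-/y (-0.13, SE 0.43, adjusted p = 0.839). Tnnc1 was at 420, 302, 127 and 304 CPM in WT and at 258, 239, 97.8 and 231 CPM in Mtm1-/y (-0.50, SE 0.36, adjusted p = 0.322). In all 3 genes WT 3 was the lowest WT library, WT 1 the highest, and Mtm1-/y 3 the lowest Mtm1-/y library. Myh7, the slow myosin heavy chain, followed the same order within WT, at 1906, 1134, 474 and 1280 CPM, and was lowest in Mtm1-/y 3 at 248 CPM against 955 to 1050 CPM in the others. The coefficient of variation among WT libraries was 42.6% for Tnnt1, 49.4% for Tnni1 and 41.9% for Tnnc1, against 10.1% for Tnnt3, 8.10% for Tnni2 and 11.3% for Tnnc2. Whether the piece of muscle taken or the animals set this spread was not tested.

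**Figure D3:**
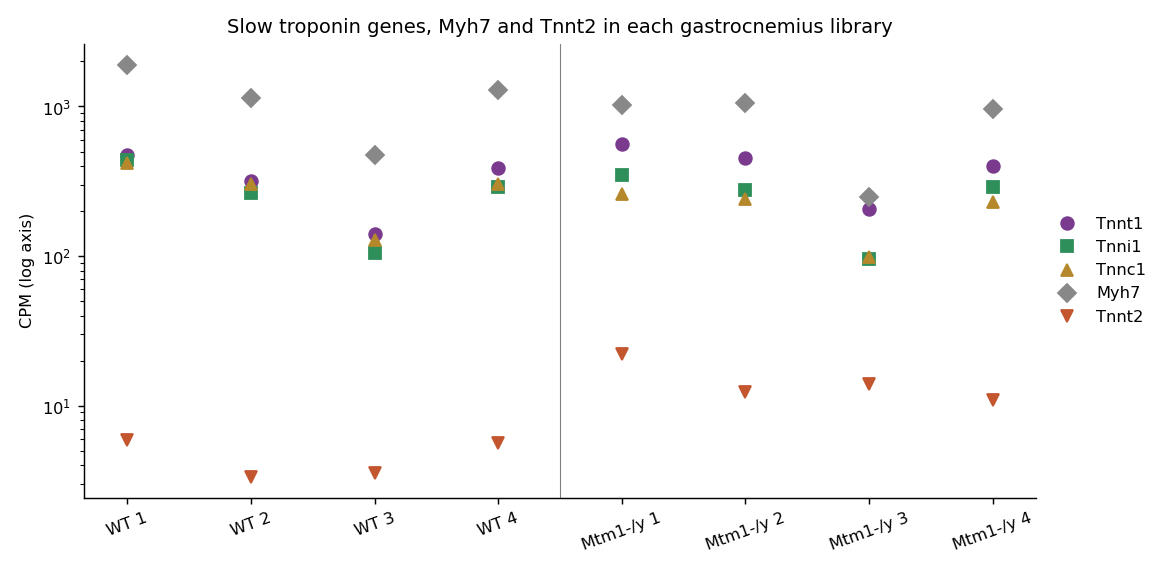
Level of Tnnt1, Tnni1, Tnnc1, Myh7 and Tnnt2 in CPM on a log axis in each of the 8 gastrocnemius libraries. The 3 slow troponins and Myh7 dip together in WT 3 and Mtm1-/y 3, while Tnnt2 is at 3.34 to 5.92 CPM in WT and 10.9 to 22.2 CPM in Mtm1-/y, where its lowest library is Mtm1-/y 4.

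The balance of slow to fast forms was measured within each library as a log2 ratio of counts, which is free of scaling between libraries. In the gastrocnemius the Tnnt1 to Tnnt3 ratio was -5.75, -6.62, -7.60 and -6.33 in WT and -4.81, -5.20, -6.43 and -5.42 in Mtm1-/y, a difference of 1.11 with overlap of the groups (exact permutation test, two-sided, p = 0.0857, adjusted over 10 ratios 0.143). The Tnni1 to Tnni2 ratio differed by 0.52 (exact p = 0.429) and the Tnnc1 to Tnnc2 ratio by 0.13 (exact p = 0.686), and both overlapped. Single libraries moved the Tnni1 to Tnni2 difference to 0.16 without WT 3, 0.27 without Mtm1-/y 1, 0.82 without WT 1 and 0.95 without Mtm1-/y 3. The Tnnt2 to Tnnt3 ratio did separate the genotypes, from -13.19 to -12.06 in WT and from -10.63 to -9.48 in Mtm1-/y. Its difference of 2.45 had an exact p = 0.0286, the smallest that 4 libraries against 4 allow, and 0.114 after adjustment over the 10 ratios.

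**Figure D4:**
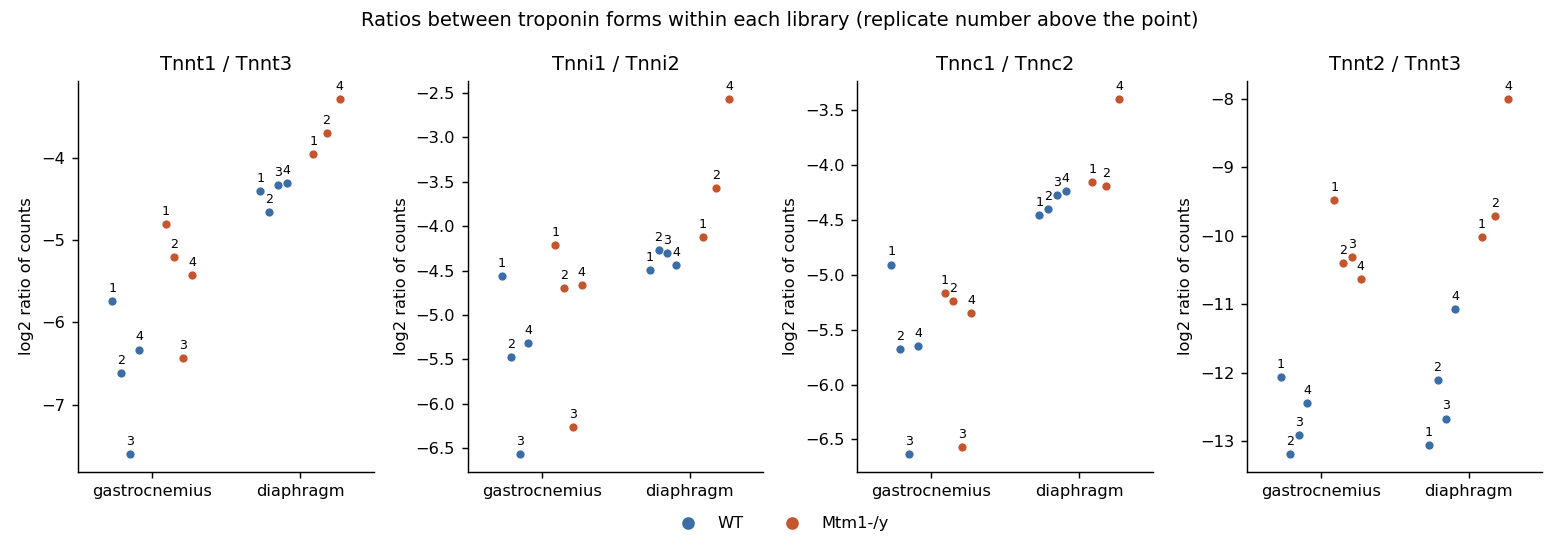
Log2 ratio of counts between troponin forms within each library, with the replicate number above each point, in gastrocnemius and diaphragm. The slow to fast ratios overlap between genotypes in the gastrocnemius and do not overlap in the diaphragm, where Mtm1-/y 4 is highest in each of the 4 panels.

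Ratios between forms of the same class were read as well, after the values were seen and with no test. The count ratio of Tnnt1 to Tnnc1 was 1.12, 1.05, 1.11 and 1.28 in WT and 2.19, 1.91, 2.10 and 1.74 in Mtm1-/y, so that the groups did not overlap although neither gene alone passed the test. The ratio of Tnni1 to Tnnc1 was 1.04, 0.869, 0.830 and 0.956 in WT and 1.34, 1.15, 0.980 and 1.26 in Mtm1-/y, with overlap. WT diaphragm already had Tnnt1 to Tnnc1 at 1.63 to 2.20, and its Mtm1-/y libraries were at 2.02 to 2.58. Among the fast forms, Tnnt3 to Tnnc2 was at 2.01 to 2.17 in WT and 1.71 to 1.90 in Mtm1-/y gastrocnemius, and at 1.95 to 2.12 and 1.83 to 1.88 in the diaphragm, without overlap in either muscle. Tnnt3 to Tnni2 was at 2.47 to 2.74 in WT and 2.34 to 2.46 in Mtm1-/y gastrocnemius, also without overlap, and the ratio of Tnni2 to Tnnc2 overlapped there.

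Summed over forms, troponin made up 4.46% ± 0.255 of all counts in WT and 3.48% ± 0.139 in Mtm1-/y gastrocnemius (SD, n = 4). Total troponin T was at 28887 ± 2887 RPKM in WT and 17173 ± 661 in Mtm1-/y, total troponin I at 14397 ± 1170 and 9432 ± 504, and total troponin C at 20354 ± 2292 and 13492 ± 227 (SD, n = 4). The ratio of T to C per length was 1.38 to 1.50 in WT and 1.20 to 1.33 in Mtm1-/y gastrocnemius, and 1.35 to 1.47 and 1.28 to 1.32 in the diaphragm. The ratio of I to C was 0.688 to 0.740 and 0.640 to 0.725 in the gastrocnemius, with overlap. By share, Tnnt1 made up 1.12% ± 0.534 of troponin T in WT and 2.33% ± 0.938 in Mtm1-/y gastrocnemius (SD, n = 4), which also overlap. These sums were likewise given no test.

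In the diaphragm none of the 8 genes passed edgeR's test, which called 0.0119% of the 16796 genes tested, 1806 genes having an unadjusted p under 0.05. Among the 8, only Tnnt2 had an unadjusted p under 0.05. Tnnt2 was at 0.853, 2.45, 1.68 and 3.73 CPM in WT and at 7.79, 8.18 and 31.4 CPM in Mtm1-/y libraries 1, 2 and 4, on 32 to 145 and 227 to 1465 counts. Every Mtm1-/y library was above every WT library, and the log2 fold change was 2.88 (SE 0.67, edgeR adjusted p = 0.279). DESeq2, which called 2.37% of its genes here, gave Tnnt2 2.89 with an adjusted p of 0.000446, and edgeR on all 30 libraries gave 2.85 with 0.0119. Without Mtm1-/y 4 the edgeR value fell to 1.88. Tnni3 was the other gene without overlap, at 0.753 to 1.47 CPM in WT and 1.72 to 2.13 CPM in Mtm1-/y (edgeR log2 change 0.65, SE 0.27, adjusted p = 0.467). These are 2 of 8 genes, where 9.97% of all genes tested had no overlap. Heart markers were read here too. Nppa was at 0 to 0.252 CPM in WT and at 0.917, 1.33 and 0.0644 CPM in Mtm1-/y libraries 1, 2 and 4. Myl7 was at 0.209 to 0.979 CPM in WT and at 1.13, 1.37 and 0.343 CPM in Mtm1-/y. None of the atrial or cardiomyocyte markers passed edgeR's test, at median log2 fold changes of 0.64 and 0.74. Their part in the levels of Tnnt2 and Tnni3 was not tested.

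The fast forms of the diaphragm did not pass edgeR's test, which does not show that they were equal. Alb in these libraries was at 22989, 15624, 252 and 16630 CPM in WT libraries 1 to 4. It was at 1491, 28581 and 480 CPM in Mtm1-/y libraries 1, 2 and 4. The relation of Alb to the fast forms was not tested. Tnnt3 was at 7234, 10780, 10925 and 8000 CPM in WT and at 8092, 6840 and 8053 CPM in Mtm1-/y (edgeR log2 change -0.26, SE 0.26, adjusted p = 0.82), and the groups overlapped. Tnni2 (-0.23, SE 0.24) and Tnnc2 (-0.12, SE 0.25) overlapped as well. Of the slow forms, Tnnt1 was at 342, 427, 543 and 405 CPM in WT and at 520, 523 and 825 CPM in Mtm1-/y (0.55, SE 0.24, adjusted p = 0.481). Tnni1 was at 145, 254, 251 and 160 CPM in WT and at 232, 257 and 586 CPM in Mtm1-/y (0.84, SE 0.39, adjusted p = 0.504), so that Mtm1-/y 4 alone stood far above WT. Without Mtm1-/y 4 the value of Tnni1 was 0.28, and that of Tnnc1, 0.36 (SE 0.30) with all libraries, was 0.01.

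Within libraries the slow to fast balance of the diaphragm was higher in every Mtm1-/y than in every WT library for all 3 subunits. The log2 ratio of Tnnt1 to Tnnt3 was -4.66 to -4.31 in WT and -3.96, -3.71 and -3.29 in Mtm1-/y, a difference of 0.77. That of Tnni1 to Tnni2 was -4.50 to -4.27 in WT and -4.12, -3.58 and -2.57 in Mtm1-/y, a difference of 0.96. That of Tnnc1 to Tnnc2 was -4.45 to -4.23 in WT and -4.15, -4.19 and -3.39 in Mtm1-/y, a difference of 0.43. The Tnnt2 to Tnnt3 ratio differed by 2.98, also without overlap. Each of these 4 ratios had an exact p = 0.0571 (two-sided permutation test), the smallest that 4 libraries against 3 allow, so this design cannot pass 0.05, and 0.114 after adjustment over the 10 ratios. The subunit ratios share their libraries and are not independent. Without Mtm1-/y 4 the differences were 0.59, 0.53 and 0.17 for T, I and C. As shares, Tnnt1 was 4.39% ± 0.448 of troponin T RPKM in WT (SD, n = 4) and 7.33% ± 1.62 in Mtm1-/y (SD, n = 3), and Tnni1 was 3.12% ± 0.222 and 6.37% ± 3.35 of troponin I.

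In the heart the main troponins overlapped between the genotypes, and none of the 8 passed edgeR's test (0.00656% of 15238 genes tested did, and 1353 had an unadjusted p under 0.05). None passed in DESeq2 either, for which the share over all genes in the heart is not given here. Tnnt2 was at 6436, 7575, 7100 and 5151 CPM in WT and at 6700, 7583, 7391 and 7011 CPM in Mtm1-/y (edgeR log2 change 0.12, SE 0.13, adjusted p = 0.71). Tnni3 was at 2654, 2871, 2775 and 2574 CPM in WT and at 2343, 2954, 2496 and 2307 CPM in Mtm1-/y (-0.12, SE 0.11, adjusted p = 0.663). Tnnc1 was at 2058, 2378, 1938 and 1448 CPM in WT and at 2410, 1967, 2471 and 2507 CPM in Mtm1-/y (0.25, SE 0.16, adjusted p = 0.562). The groups overlapped for each of these, as for all 8 genes in the heart (4.26% of all genes tested did not overlap there), and the WT 4 heart was the lowest of the 8 for Tnnt2 and Tnnc1. Cardiac forms made up 99.7% ± 0.0638 of troponin T and 99.8% ± 0.144 of troponin I RPKM in WT hearts, and 99.8% ± 0.0472 and 99.9% ± 0.0417 in Mtm1-/y hearts (SD, n = 4).

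Among the trace forms of the heart, Tnni1, the fetal form, was at 0.778, 0.163, 0.560 and 1.28 CPM in WT and at 0.0916, 1.01, 0.0346 and 0.289 CPM in Mtm1-/y hearts, on 1 to 48 counts (log2 fold change -0.98, SE 0.84, adjusted p = 0.637). Myl7, the atrial light chain, was at 711, 39.1, 600 and 4172 CPM in WT and at 4.12, 1082, 1.11 and 8.16 CPM in Mtm1-/y hearts. Nppa was at 1541, 567, 2086 and 16044 CPM in WT and at 125, 2626, 539 and 129 CPM in Mtm1-/y hearts. The summed atrial markers, 6 of 6 measured, were at 2675, 636, 3167 and 22619 CPM in WT and at 143, 4097, 555 and 157 CPM in Mtm1-/y hearts. WT 4 and Mtm1-/y 2 were highest in their genotype for Tnni1, Myl7, Nppa and the sum. The other libraries had the order of Tnni1 in Myl7 but not in Nppa or the sum, where WT 3 stood above WT 1 and Mtm1-/y 3, the lowest for Tnni1, came second in its group. The part of atrial muscle in the spread of Tnni1 was not tested. Tnni2 was at 7.55 CPM in WT 4 and 1.12 to 3.22 CPM in the other 7 hearts, and without WT 4 its log2 fold change went from -0.92 to -0.16. Tnnt3 was at 1.33 to 3.06 CPM in WT and 1.10 to 1.44 CPM in Mtm1-/y (-0.66, SE 0.27, adjusted p = 0.546) with an unadjusted p under 0.05, and without WT 4 its value was -0.38. Tnnt1 was at 11.7 to 12.8 CPM in WT and 10.1 to 17.4 CPM in Mtm1-/y, and Tnnc2 stayed under 1 CPM.

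The liver, which has no striated muscle of its own, was read as a background. All 8 genes were at or under 3.96 CPM in the liver libraries other than Mtm1-/y 2, save Tnnt3 at 5.13 CPM in Mtm1-/y 1. Mtm1-/y 2 had Tnnt3 at 18.8 CPM, Tnnc2 at 14.8 CPM and Tnni2 at 8.63 CPM. The filter on low counts left 6 of the 8 genes, and 0 of these passed, as did 0% of the 14305 genes tested (606 had an unadjusted p under 0.05, 0 of them troponins). Mtm1 itself was not called, at 15.5 to 23.8 CPM in WT and 4.42 to 8.08 CPM in Mtm1-/y livers. This fit thus missed a known change, and its lack of calls does not show a lack of change. The study, with DESeq2, listed Mtm1, Myh6 and Myl2 among the genes changed in the liver. Tnnt2 was at 0.0442 to 2.17 CPM in the livers, against 3.34 to 5.92 CPM in WT gastrocnemius and 0.853 to 3.73 CPM in WT diaphragm. Other contractile genes were read in the livers too. Myh6 was at 2.51, 2.12 and 1.84 CPM in Mtm1-/y 2, 3 and 4 and at 0.0442 to 0.162 CPM in the other livers. Myl2 was at 2.88, 0.807 and 1.05 CPM in the same Mtm1-/y livers and at 0 to 0.133 CPM in the others. The source of these transcripts was not tested.

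The genotype effects were compared between tissues as contrasts in 1 edgeR fit of each pair of tissues. Between heart and gastrocnemius 2 of the 8 genes differed, against 19.8% of the 16627 genes tested, a share near that of genes at large. The effect on Tnnt2 was lower in the heart (log2 difference, heart minus gastrocnemius, -1.53, SE 0.31, adjusted p = 0.00364), and so was that on Tnni3 (log2 difference -0.92, SE 0.22, adjusted p = 0.0109). Both of these genes are the main forms of the heart and traces in the muscle. For the fast forms, traces in the heart, the differences were 0.14 to 0.33 for Tnnt3 and Tnnc2 and -0.26 for Tnni2, and did not pass. Between diaphragm and gastrocnemius 0 of the 8 passed in edgeR (0.280% of 17509 genes did) or in DESeq2, and 0 had an unadjusted p under 0.05, although Tnnt3 (0.52, SE 0.25, adjusted p = 0.402), Tnnc2 (0.48, SE 0.24, adjusted p = 0.426) and Tnni2 (0.40, SE 0.23, adjusted p = 0.492) lay on the same side. A fall of the fast forms in the gastrocnemius and none called in the diaphragm is therefore not shown to be a difference between the muscles. Between heart and diaphragm 0 of the 8 passed in edgeR (0.00573% of 17466 genes did), and Tnnt2 stood at -2.74 (SE 0.66, adjusted p = 0.186), with 1 gene called by DESeq2's interaction term and 2 genes, Tnnt2 and Tnni3, at an unadjusted p under 0.05 in edgeR. The shares of all genes that DESeq2 called in these contrasts are not given here, so its counts cannot be set against genes at large.

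Other genes of the contractile machinery were read from written lists to set the troponins beside their partners in the gastrocnemius. Of 14 thin filament partners, 4 rose and 6 fell (median log2 fold change -0.20, against 0.02 over all genes and -0.32 over the troponins). Tmod4, a cap of the pointed end, fell by 0.51, the tropomyosin gene Tpm1 by 0.78, the skeletal actin Acta1 by 0.75 and nebulin, Neb, by 0.45. The 4 that rose were Lmod2 (0.98), Klhl40 (0.74), Klhl41 (0.53) and another tropomyosin gene, Tpm2 (0.46), so the list did not fall as a whole. Of 13 other fast contractile genes 11 fell and 2 rose (median -0.75), so that the fast troponins moved in the same direction as most of this list. Actn3, the fast alpha-actinin, fell by 0.92, the calcium buffer Casq1 by 0.83 and the fast myosin binding protein Mybpc2 by 0.91. The 2 that rose were the myosins Myh1 (1.08) and Myh2 (0.93), named here for the count.

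Of 11 slow contractile genes 3 rose and 1 fell (median -0.07). The muscle LIM protein gene Csrp3 rose by 2.39, the stretch-linked Ankrd2 by 1.85 and the slow calsequestrin Casq2 by 0.97, and the slow light chain Myl3 fell by 1.06. Of 12 developmental muscle genes 8 rose and 1 fell (median 1.77). Ncam1, an adhesion molecule of developing and denervated fibres, rose by 1.77, the perinatal myosin Myh8 by 1.05, the acetylcholine receptor subunit Chrna1 by 1.77 and the embryonic myosin Myh3 by 3.81. The cardiac actin Actc1, also a developmental form, fell by 2.17. Tnnt2 and Actc1, both cardiac forms that young muscle makes, thus went in opposite directions. Of 7 cardiac contractile genes that passed the filter 2 fell, Actc1 and Myl3, and 0 rose.

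**Figure D5:**
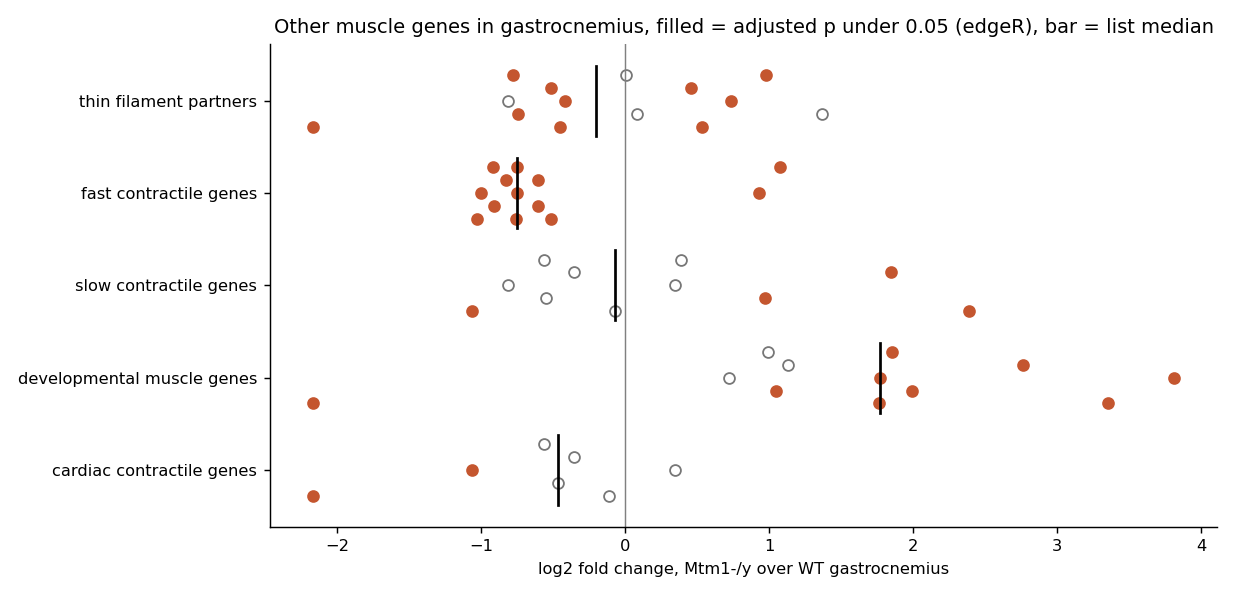
Log2 fold change of Mtm1-/y over WT gastrocnemius for the genes of 5 lists, 1 point per gene, filled at an adjusted p under 0.05, with a bar at the list median. The fast genes gather at a median of -0.75 and the developmental genes at 1.77, and the leftmost point of 3 lists, at -2.17, is the same gene, Actc1.

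Among 20 regulators of fibre type 2 rose and 6 fell (median -0.14). Sox6, a repressor of slow genes, fell by 0.78 (SE 0.07, adjusted p = 0.000117), the coactivator Ppargc1a by 0.60 and Srf by 0.46, and the deacetylase Hdac4 rose by 0.59. Among 13 troponin kinases and phosphatases measured, 2 rose and 4 fell (median -0.11). The kinase genes Prkca and Prkacb fell by 0.54 and 0.30, the phosphatase subunit Ppp1cb fell by 0.46, and Prkcd rose by 0.42. Markers of cells other than skeletal muscle fibres moved in both directions. All 6 macrophage markers rose, from a summed 31.4 to 52.4 CPM in WT to 79.5 to 98.8 CPM in Mtm1-/y, 6 of 8 adipocyte markers rose (581 to 950 and 620 to 1133 CPM summed) and 3 of 6 fibroblast markers rose (2063 to 7468 and 2212 to 9296 CPM summed). Of 6 smooth muscle markers 2 fell, Lmod1 by 0.92 and Myh11 by 0.38, and 0 rose (308 to 416 and 280 to 362 CPM summed). Of 10 hepatocyte markers 2 fell, Tat by 2.46 and Serpina1c by 2.26, and 1 rose, Cyp2e1 by 1.12 (35.4 to 127 and 19.3 to 69.2 CPM summed). Skeletal muscle markers fell in 7 of 8 cases and rose in 1, from a summed 182950 to 219290 CPM to 122040 to 131990 CPM. Their part in the fall of the fast troponins was not tested. In the diaphragm, the heart and the liver 0 genes of these lists passed edgeR's test, and the developmental list had a median of 2.22 in the diaphragm.

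Finally, the genes whose levels most resembled those of the troponins other than Tnni1 were read over the 23 gastrocnemius, diaphragm and heart libraries, by Pearson's r of log2 CPM among 10744 genes. These libraries fall into tissue clusters, so that r mostly reflects the tissues. Tnnt3 and Tnnc2 were each other's nearest (0.999), followed by the calcium release channel Ryr1 and the transcript Nctc1, and Tnni2 was nearest to the calcium pump Atp2a1 (0.999), then Tnnt3 and Sypl2. Tnnt1 was nearest to Myom3, Myh2 and Adcy2 (0.985 to 0.988). Tnnt2 was nearest to Ccdc141, Fbxo10 and Kcng2 (0.986 to 0.988), Tnni3 to Ryr2, Frmd5 and Pln (0.996 to 0.997), and Tnnc1 to Myh6, Atp2a2 and Myl2 (0.970 to 0.984).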

How the data were processed

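Poly-A RNA of whole tissues was sequenced in 30 libraries. Per the study's methods and the submitters' processing notes, libraries were made from 350 ng of RNA with a stranded kit, single reads of 50 bases were trimmed with cutadapt 1.10, aligned to mm10 with STAR 2.5.3a and counted per gene of Ensembl release 96 with HTSeq 0.6.1p1. The deposited values are raw counts. HTSeq drops reads that fit several genes. Stretches shared on the same strand lose counts, and those shared across strands do so only if strand was ignored in counting.

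From these counts each tissue was fitted in R 4.3.3 with edgeR 4.0.16 (filterByExpr at a count minimum of 10, TMM, quasi-likelihood F test, Benjamini-Hochberg over all genes tested). Calls required an adjusted p under 0.05. The SE is the log2 fold change over the square root of F. Tissue differences were contrasts of joint fits. CPM and RPKM used TMM over the 30 libraries, and log2 CPM a prior count of 2. The 10 ratios had exact two-sided permutation tests. The fits were tested on simulated data. Replicates are separate samples by label, and nothing here says more of the animals.

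The members and lists were chosen with earlier results of these data known. Named genes are the 8 members, up to 4 genes per list and tissue with the smallest p among those called, or the 2 most abundant where none was called, and the 3 genes most correlated with each member. Overlapping genes and Alb, Nppa, Myl7, Myh7, Myh1, Myh2 and, in the diaphragm, Myh3 were named after their values were seen. So were other genes given beside a result in the heart, gastrocnemius and liver. Replicate numbers were not taken to pair the samples, since in none of the pairs of groups did every correlation of same-numbered libraries pass 0.1. These ran from -0.04 to 0.10 between the gastrocnemius genotypes, from -0.64 to 0.46 between those of the diaphragm, and across WT tissues from 0.03 to 0.17 for heart and gastrocnemius and from 0.02 to 0.29 for heart and diaphragm. Alternatives were DESeq2 1.42.0, its size factors in edgeR, no filter, limma 3.58.1 voom with sample weights, all 30 libraries in 1 fit, a replicate block, liver-enriched genes left out, and each library left out in turn. The genes with levels most like those of Tnni1 are not reported here.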

Additional observations from a re-analysis of the deposited data

Results flagged for a closer look

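Tnnt2 and Tnni3 are listed because their genotype effects in the heart and in the gastrocnemius differed in a test of the difference, by -1.53 for Tnnt2 (edgeR, adjusted p = 0.00364) and by -0.92 for Tnni3 (adjusted p = 0.0109). The number of troponins called in this contrast was 2 in each of the 16 fits that leave out 1 library. Which genes made up that count in each fit is not given here, so it does not show that Tnnt2 and Tnni3 kept their calls. With all libraries of the heart and gastrocnemius, 19.8% of the 16627 genes tested were called in this contrast. The shares in the 16 fits are not given here.

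In 3 of 48 groups of 4 libraries, the value of 1 library lay far from the others by Dixon's ratio on log2 CPM, and chance gives about 1 group in 20. Tnnc1 was at 97.8 CPM in gastrocnemius library Mtm1-/y 3 and at 231 to 258 CPM in the other Mtm1-/y libraries. Tnnc1 was at 1967 CPM in the heart Mtm1-/y 2 and at 2410 to 2507 CPM in the others of its group. Tnnt1 was at 4.15 CPM in the liver Mtm1-/y 2 and at 2.12 to 2.23 CPM in the others. That liver library also held Acta1, the skeletal actin, at 47.1 CPM, against 2.38 to 12.1 CPM in the other livers.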

How the results depend on the processing

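The 10 counts of called troponins per tissue and tissue pair and the ratios were recomputed under each alternative. In the gastrocnemius the count of 5 became 1 with an absolute log2 fold change over 1 as well and 2 with all 30 libraries in 1 fit, and it was 4 to 5 when 1 library was left out. In the diaphragm DESeq2 and the fit of all 30 libraries each called 1 gene, Tnnt2. Between the genotype effects of heart and diaphragm DESeq2's interaction term called 1 gene, and leaving out 1 library gave 0 to 1, with 1 without the diaphragm library Mtm1-/y 2. The WT diaphragm to gastrocnemius count of 5 ranged from 3 to 6 when 1 library was left out, with 3 without the gastrocnemius library WT 4. The share of all genes called under these alternatives is given above only for the log2 fold change threshold and for DESeq2 in the diaphragm. The cause of these changes was not tested. Of the ratios, leaving out 1 library moved the gastrocnemius Tnnt2 to Tnnt3 difference within 2.20 to 2.64 at a smallest possible p of 0.0571, Tnnc1 to Tnnc2 in the gastrocnemius within -0.17 to 0.46, and Tnnt1 to Tnnt2 in the heart within -0.14 to 0.089.

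For single genes, limma voom turned the sign of Tnni1 in the gastrocnemius (0.00044), of Tnnt1 in the heart (-0.0026) and of Tnnt3 (-0.76), Tnni2 (-0.64) and Tnnc2 (-0.028) in the liver, all far from the threshold. Leaving out 1 library gave ranges across 0 for Tnni1 in the gastrocnemius (-0.40 to 0.17), Tnnt1 in the heart (-0.018 to 0.24) and, in the liver, Tnnt2 (-0.52 to 0.58), Tnnt3 (-0.57 to 1.22), Tnni2 (-0.81 to 1.41) and Tnnc2 (-0.29 to 1.88). With the replicate block, Tnnt2 in the liver was at -0.028, Tnni3 in the gastrocnemius lost its call (adjusted p = 0.0866) and Tnnc1 there gained one (-0.47, adjusted p = 0.00695), so the count stayed at 5. Across WT tissues, where 3 of 4 hearts matched best the diaphragm and 3 of 4 the gastrocnemius library of their own number, the block left the counts at 5, 8 and 8. These numbers were not taken to pair the samples, and the block changed no other call of a troponin within a tissue. Leaving out liver-enriched genes, by the planned rule or by 1 added after seeing the data, changed no call. Trace forms rest on few counts, and the diaphragm's spread limits what its 7 libraries can show.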
